A study of Mus musculus with 9 samples.

Results

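The oligoadenylate synthetase (OAS) family was followed in SCCVII, a mouse oral squamous carcinoma line, before and after growth as a tumour. The family was taken as 8 genes, Oas1a, Oas1b, Oas1c, Oas1g, Oas2, Oas3, Oasl1 and Oasl2, found by the symbol of each probe set that the array's annotation gives to a single gene. Of these, 7 had a value, each from exactly 1 probe set, among 18193 genes tested. Oas1g had no such probe set and was not analysed here. The family was chosen by results already known from these arrays, in which Oasl2 and Oas1a were among the genes that differed most from the parental line. Differences from the parental line are therefore given for the members as a description, without p-values, and nothing is supported with them.

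OAS proteins are sensors of double-stranded RNA, the form of RNA that many viruses make. Once bound to it, the active enzymes join ATP into short chains with an unusual 2'-5' linkage (2-5A), which act as a second messenger of the antiviral response. The genes are induced by interferon through a complex that includes STAT2 and IRF9 and binds a DNA element in their promoters. Mice carry many copies of Oas1, of which Oas1a and Oas1g make the active enzyme, whereas Oas1b and Oas1c are known as inactive or nearly so. Oasl1 and Oasl2 carry ubiquitin-like repeats. Oasl2 is active, and Oasl1 is not and is known instead as a repressor of Irf7 translation.

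RNA was measured on 9 Affymetrix mouse arrays, 3 for each of 3 groups. PA was the parental SCCVII line in standard culture, from an oral tumour that arose spontaneously in CH3 mice, as the labels spell the strain. NIR came from tumours made by PA cells after injection into non-irradiated stroma, and these tumours and lines were described as poorly invasive and metastatic. IR was derived from tumours formed in pre-irradiated stroma, which were described as highly hypoxic, invasive and metastatic, a behaviour the lines were said to keep in normoxic culture. All groups thus share the same cell line, and the labels name no gene alteration or drug in any of them. The comparisons with PA addressed what a passage through a tumour left in the cells, and IR against NIR addressed what the irradiated stroma added. The labels do not tie the 3 arrays of a group to separate tumours, cell lines or dishes, and the p-values then measure only the spread between these samples, which may be technical. In RNA from whole cultures, fewer cells of a type and less RNA per cell cannot be told apart.

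The values are deposited log2 expression values from RMA, a method that corrects, normalises and summarises Affymetrix probes, so a difference of 1 is a 2-fold change. Array medians lay between 4.45 and 4.52, and the median of all probe set values was 4.49, a level at which a probe set is dim. The markers of squamous carcinoma did not all fit the label. Krt8 and Krt18, keratins of simple epithelium, were bright in all groups (group means 12.67 to 12.76 and 11.39 to 11.96), but Krt14, Cdh1, Trp63 and Dsp, which mark squamous and other epithelial cells, had group means of 3.24 to 4.29. Krt5 (4.90 to 4.96), Krt6a (5.09 to 5.16), Epcam (5.95 to 6.12) and Sfn (6.39 to 6.49) lay somewhat above the median. Of 10 such markers Krt18 alone was called by limma, 0.55 higher in IR than in PA (adjusted p = 0.0146, up to 0.0901 without 1 array) and 0.57 higher than in NIR (adjusted p = 0.0180, up to 0.0609). Col1a2, Col3a1 and Pdgfra, listed as fibroblast markers, were bright in every group (9.15 to 11.60), PA included.

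Promoter sequences are shown because the element through which interferon acts can be read in them. RefSeq promoter windows of build GRCm38.p6, from 250 bases before to 50 bases after each start, were held for 6 of the 8 members and not for Oas1b and Oas2. The core of the interferon-stimulated response element, GAAANNGAAA, was searched on both strands. It matched 2 times in Oas1a, Oas1g and Oas1c, where the paired matches overlap, 1 time in Oas3 and not in the windows of Oasl1 and Oasl2. Of all 32851 windows, 3.44% held a match. Capitals mark the matches below, each sequence is written 5' to 3' along the gene, and all 4 genes lie on the minus strand of chromosome 5.
Oas1a, chr5:120907526-120907575: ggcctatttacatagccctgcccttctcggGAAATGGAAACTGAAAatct
Oas1g, chr5:120887614-120887661: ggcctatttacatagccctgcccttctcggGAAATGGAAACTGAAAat
Oas1c, chr5:120812593-120812658: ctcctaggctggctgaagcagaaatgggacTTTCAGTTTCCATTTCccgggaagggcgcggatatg
Oas3, chr5:120777705-120777764: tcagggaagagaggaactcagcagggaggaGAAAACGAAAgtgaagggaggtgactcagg
Counted from the annotated start, the last match ended at -5 in Oas1a and at -3 in Oas1g. Over the whole windows, 88.8% of the aligned bases of Oas1a and Oas1g were identical. In Oas1c the same pair of cores lies on the opposite strand, at -114 to -99 from the start, and the Oas3 core lies at -75 to -66. A match is a run of letters and was not tested for binding.

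Across the family the parental cells had the highest levels. In 6 of the 7 measured members every IR and every NIR array lay below every PA array, the exception being Oas1b, and 2.16% of all genes had that pattern. Lower values passed the limma threshold in 5 of 7 members in IR against PA, where 0.759% of all genes were called lower and 0.297% higher. In NIR against PA it was 6 of 7, where 0.918% of all genes were called lower and 0.379% higher. Since the members were chosen on these differences, nothing is read from those counts. The median difference of the members was -1.55 in IR and -1.15 in NIR, against 0.004 and 0.005 over all genes. Both comparisons share the PA arrays, so their likeness is not a separate result.

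**Figure D1:**
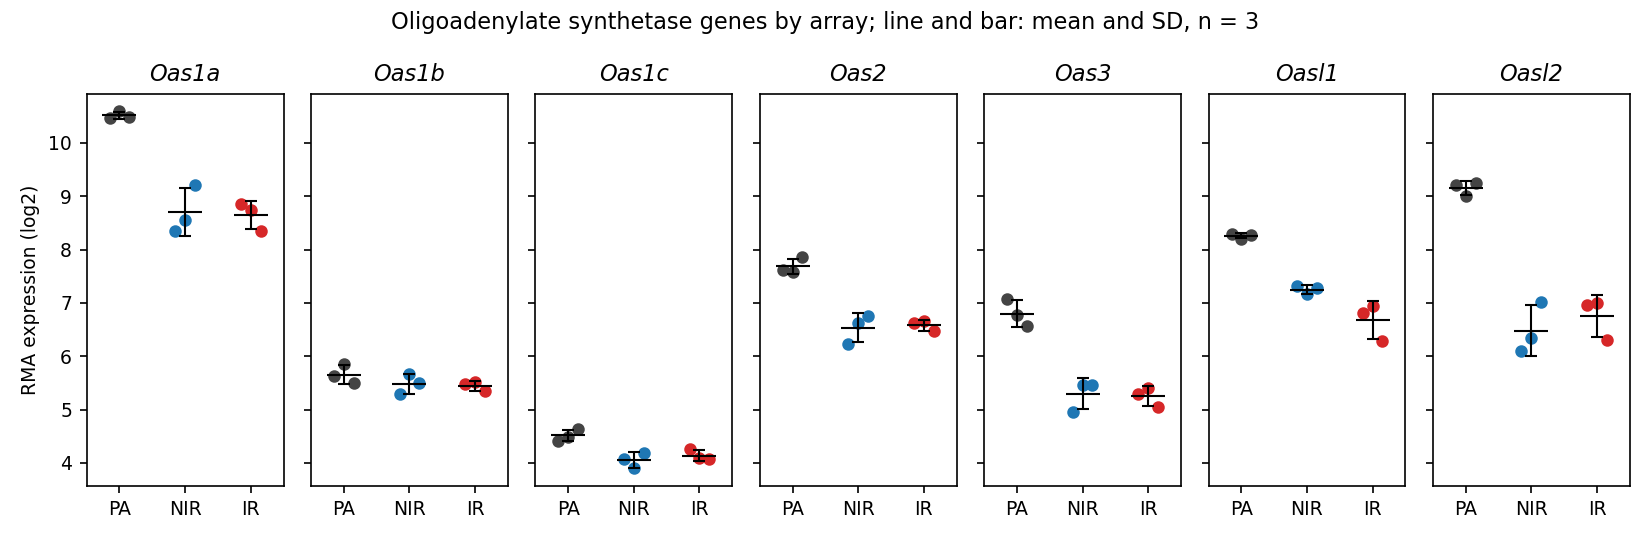
RMA expression (log2) of the 7 measured OAS family genes on each array, with PA in grey, NIR in blue and IR in red; horizontal lines and bars are the mean and SD of 3 arrays. In Oas1a, Oas2, Oas3, Oasl1 and Oasl2 the derived groups sit at least 1 log2 unit below PA by their means. The differences are smaller in Oas1b, whose groups overlap, and in Oas1c, the dimmest member.

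Oas1a, which makes the active small synthetase, was the brightest probe set of the family. It read 10.47, 10.59 and 10.48 in PA, then 8.36, 8.55 and 9.22 in NIR, and 8.85, 8.75 and 8.36 in IR. PA stood alone and tight, while NIR and IR overlapped fully, with NIR3 the highest of the derived arrays. Against PA, Oas1a was 3.63-fold lower in IR (log2 difference -1.86, SE 0.19, n = 3 arrays per group) and 3.49-fold lower in NIR (-1.80, SE 0.19). Oas1g is a close copy of Oas1a that is not listed for this probe set, and which share of the signal each gene gave was not tested.

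Oas2, the medium synthetase with a doubled OAS unit, read 7.61, 7.58 and 7.85 in PA, 6.23, 6.62 and 6.76 in NIR, and 6.62, 6.66 and 6.46 in IR. No derived array came near PA, and the IR arrays lay within the range of the NIR arrays. The gene was 2.14-fold lower in IR (-1.10, SE 0.13) and 2.21-fold lower in NIR (-1.15, SE 0.13).

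Oas3, the large synthetase with a triple OAS unit, read 7.07, 6.77 and 6.56 in PA, 4.96, 5.46 and 5.46 in NIR, and 5.29, 5.41 and 5.05 in IR. Of the measured members it had the widest PA arrays (SD 0.26), yet the lowest of them was more than 1 log2 unit above the highest derived array. It was 2.92-fold lower in IR (-1.55, SE 0.16) and 2.84-fold lower in NIR (-1.50, SE 0.16). Its derived levels, with means of 5.25 in IR and 5.29 in NIR, are close to the dim range, where RMA compresses differences.

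Oas1b and Oas1c, known as inactive or nearly so, stood closer to PA. Oasl1, which is not active either, did not (-1.58 in IR and -1.01 in NIR). Oas1b, best known as the flavivirus resistance gene, read 5.62, 5.85 and 5.49 in PA, 5.29, 5.67 and 5.49 in NIR, and 5.48, 5.51 and 5.34 in IR, and the groups overlapped. Its differences from PA were -0.21 in IR and -0.17 in NIR (SE 0.11), and neither passed the threshold. Oas1c was the dimmest member, at 4.42, 4.49 and 4.63 in PA, 4.07, 3.91 and 4.19 in NIR, and 4.25, 4.08 and 4.07 in IR. Its PA arrays were above all others, but by little, with differences of -0.38 in IR and -0.46 in NIR (SE 0.092). The threshold was passed only in NIR, and not when any of IR2, NIR1, NIR2, PA1, PA2 or PA3 was left out (difference -0.40 without PA3).

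Oasl2, the active OAS-like enzyme, had the largest differences of the family. It read 9.20, 9.01 and 9.25 in PA, 6.09, 6.34 and 7.01 in NIR, and 6.96, 7.00 and 6.30 in IR. The gap between PA and the derived arrays exceeded the whole spread within them. Oasl2 was 5.28-fold lower in IR (-2.40, SE 0.22) and 6.39-fold lower in NIR (-2.68, SE 0.22).

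Oasl1, the OAS-like protein known to hold back Irf7 translation, read 8.30, 8.21 and 8.28 in PA, 7.31, 7.16 and 7.28 in NIR, and 6.81, 6.95 and 6.28 in IR. This was the member whose 3 groups did not overlap at all, in the order PA, NIR, IR. It was 2.99-fold lower in IR (-1.58, SE 0.14) and 2.02-fold lower in NIR (-1.01, SE 0.14) than in PA. In the other members PA was above both derived groups, in Oas1b by no more than the spread, and NIR and IR did not differ beyond their spread.

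**Figure D2:**
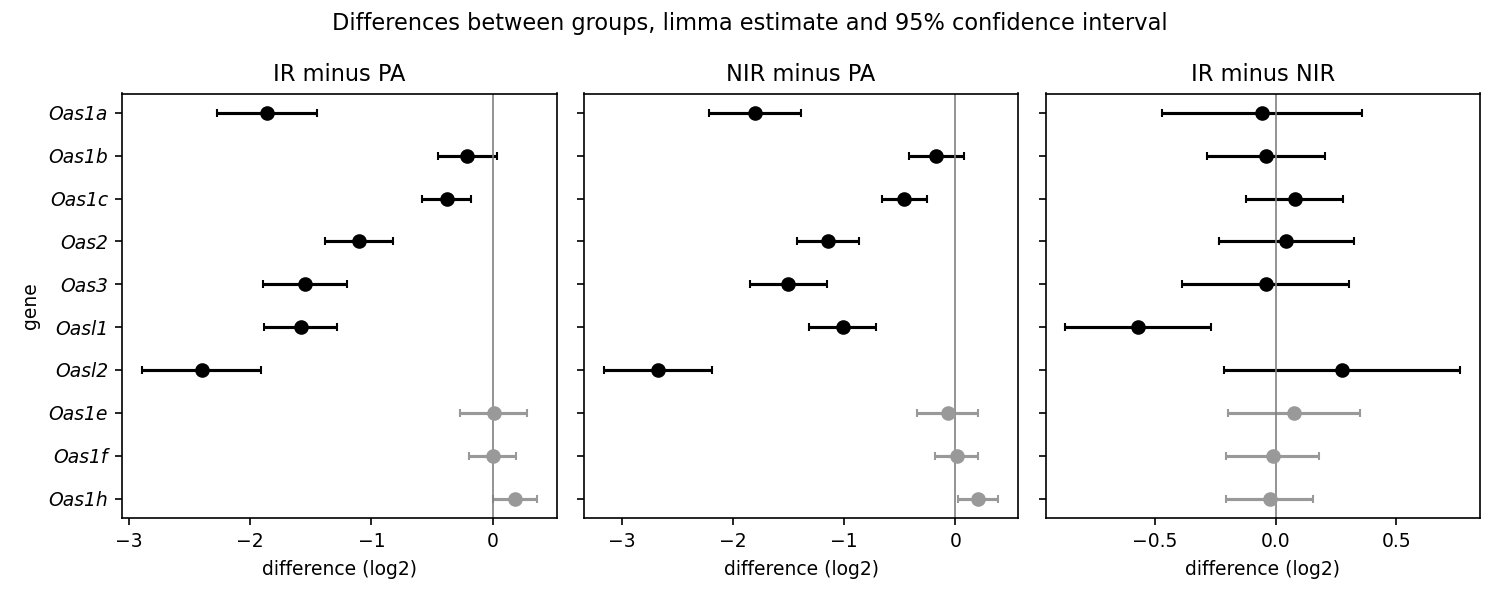
Log2 differences between groups for the 7 measured members (black) and 3 further Oas1 copies (grey), as limma estimates with 95% confidence intervals, 1 panel per comparison and each panel on its own scale. Both comparisons with PA show Oas1a, Oas2, Oas3, Oasl1 and Oasl2 below -1, whereas in IR minus NIR the interval of Oasl1 (-0.87 to -0.27) is the only one of a member that leaves out 0.

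IR against NIR asked whether the stroma's irradiation added anything to the family's level. By limma none of the 7 members passed after adjustment over all genes, where 0.863% of genes were called lower in IR and 0.786% higher. At an unadjusted p under 0.05 there was 1 of 7 members, Oasl1, and 2890 of 18193 genes. Oasl1 was 1.48-fold lower in IR (log2 difference -0.57, 95% confidence interval -0.87 to -0.27, limma adjusted p = 0.0658). All 3 IR arrays lay below all 3 NIR arrays for Oasl1 alone among the members, a pattern held by 9.4% of all genes. IR3 was the lowest of them, and without it the difference was -0.37 (adjusted p = 0.0764), so over 1.5 times smaller. Among the alternatives run, Oasl1 passed (adjusted p = 0.0473) only where genes below the median signal were not tested, and over the fits without 1 array its adjusted p reached 0.149.

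For the other members the intervals give the range of the difference between these IR and NIR samples only, since their spread may be technical. For Oas1a the IR minus NIR difference was -0.057 (95% confidence interval -0.47 to 0.36, limma adjusted p = 0.931), and for Oas2 it was 0.045 (-0.23 to 0.32, adjusted p = 0.915). For Oas3 it was -0.041 (-0.39 to 0.30, adjusted p = 0.942), and for Oasl2 0.28 (-0.21 to 0.76, adjusted p = 0.616). The difference was -0.038 for Oas1b (-0.28 to 0.21, adjusted p = 0.920) and 0.079 for Oas1c (-0.12 to 0.28, adjusted p = 0.747). Of these 6 intervals, that of Oasl2 alone reached as far from 0 as the difference of Oasl1. The median difference of the members was -0.038, against 0.001 over all genes.

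The tumour-derived arrays also differed among themselves. Over the 6 of them, with IR and NIR pooled, Pearson's r was 0.93 between Oas2 and Oas3, 0.87 between Oas1a and Oasl2, 0.83 between Oas2 and Oasl2, 0.82 between Oas1a and Oas2, 0.73 between Oas1a and Oas3, and 0.69 between Oas3 and Oasl2. Oasl1 had r of 0.35 with Oas1a, 0.31 with Oas3, 0.053 with Oasl2 and 0.040 with Oas2, values that also carry its difference between IR and NIR. These are descriptions over n = 6 arrays that share a cell line and fall into 2 groups, and they carry no p-value. NIR3 was the highest derived array for Oas1a, Oas2 and Oasl2 and shared the top with NIR2 for Oas3, and NIR1 and IR3 were the lowest arrays for each of these 4 genes. Oasl1 was lowest in IR3 as well, but it was not low in NIR1, where it read 7.31.

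**Figure D3:**
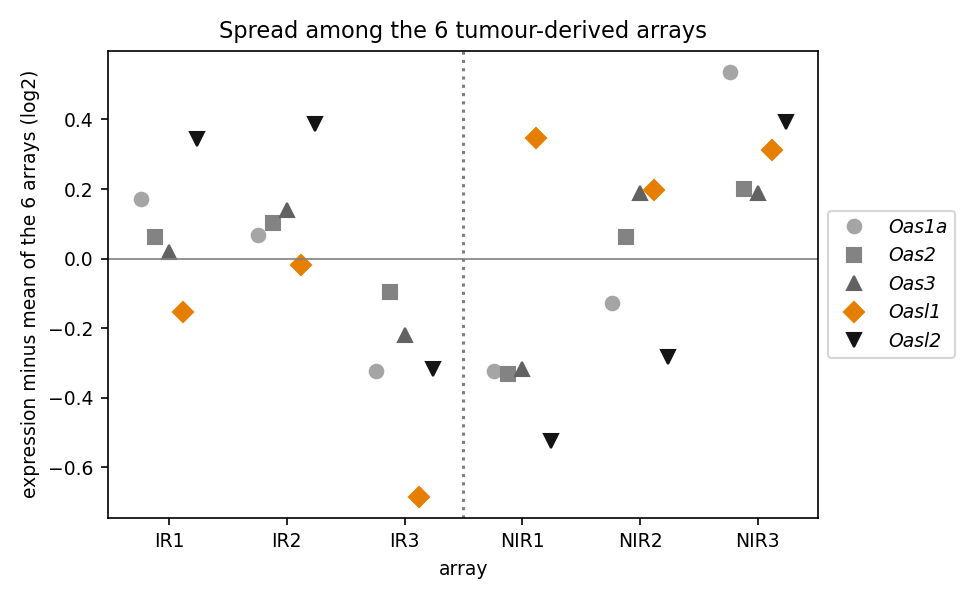
Expression of 5 members on the 6 arrays from tumour-derived cells, each gene minus its own mean over those arrays (log2), with IR arrays left and NIR arrays right of the dotted line. Oas1a, Oas2, Oas3 and Oasl2 are below 0 together in IR3 and NIR1 and above 0 together in IR1, IR2 and NIR3, whereas Oasl1 (orange) is below 0 on all IR arrays and above 0 on all NIR arrays.

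Markers of other cells varied between the arrays too. The mean of 12 macrophage markers was 4.55 to 4.65 in PA, 4.76 to 4.88 in NIR, and 4.79, 4.84 and 5.37 in IR1, IR2 and IR3. By limma none of the 12 was called in any comparison, with 5 higher in IR against PA and 1 higher in NIR against PA at an unadjusted p under 0.05. Over all genes, in either direction, 1563 and 2201 of 18193 were under that value. IR3, the IR array lowest in Oas1a, Oas2, Oas3, Oasl1 and Oasl2, held the most Lyz2, the macrophage lysozyme (8.25 against 5.71 in IR1 and 5.78 in IR2), and Ctss, cathepsin S (6.56 against 4.81 and 4.88). NIR1, the NIR array lowest in Oas1a, Oas2, Oas3 and Oasl2, did not stand out in this way. Its list mean was 4.84 (4.88 in NIR2, 4.76 in NIR3), its Lyz2 5.60 (6.32, 5.50) and its Ctss 4.67 (4.73, 4.66). Its Cd68 was the highest of the NIR arrays (5.50 against 4.79 and 4.88). The defining markers Adgre1, Itgam, Ptprc and Aif1 had group means between 3.25 and 3.90, below the median of all values, while Csf1r (5.59 to 5.76), Fcer1g (5.58 to 5.77) and Cd14 (7.33 to 7.53) lay above it in every group. Cd68 (5.83) and Tyrobp (5.39) were also higher in IR3 than on any other array. Without IR3, 3 markers were called in a comparison with PA: Ctss in both, and Lyz2 and Tyrobp in NIR. In that fit 186 of all genes were called in IR against PA (192 with all arrays) and 370 in NIR against PA (236). The NIR minus PA differences are the same with and without IR3, which enters them only through the estimate of the spread. With IR3 left out, the IR minus PA differences were -1.71 for Oas1a, -1.04 for Oas2, -1.45 for Oas3, -1.38 for Oasl1 and -2.17 for Oasl2, which describes these arrays only, since the members were chosen on such differences.

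The mean of 7 fibroblast markers was 7.79 to 7.90 in PA, 7.99 to 8.49 in NIR and 8.24 to 8.41 in IR. Dcn, the proteoglycan decorin, was called higher in IR against PA (1.24, limma adjusted p = 0.00265). In NIR, Dcn (0.81, adjusted p = 0.0391) and Lum, the related lumican (1.29, adjusted p = 0.0241), were called higher. The NIR calls were lost without several single arrays, Dcn without any but IR3 and NIR3 (up to 0.178, without PA2) and Lum without NIR1, NIR2 or any PA array (up to 0.119, without PA2). Col1a1, a collagen chain gene, was called in IR against PA only without NIR3 (0.98, adjusted p = 0.0442), with the same difference as with all arrays. Neither the 6 lymphocyte markers nor the 5 endothelial markers held a call by limma. At an unadjusted limma p under 0.05, 1 lymphocyte marker and 1 endothelial marker were higher in NIR against PA, beside 2201 of 18193 genes. In IR against NIR 1 endothelial marker was lower, beside 2890 genes under that value. The endothelial gene Cdh5 was called without IR3, higher in NIR than in PA (0.64, adjusted p = 0.00769) and lower in IR than in NIR (-0.78, adjusted p = 0.0138), and without NIR3 it was called higher in NIR than in PA (0.75, adjusted p = 0.0456). Its NIR minus PA difference was 0.64 with all arrays too, so without IR3 only the estimate of the spread changed. What part such cells had in the family's levels was not tested.

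Copies that lie side by side in the genome differed in how far they stood from PA. Along chromosome 5 the RefSeq order of the Oas genes is Oas2, Oas3, Oas1e, Oas1c, Oas1b, Oas1f, Oas1h, Oas1g, Oas1a and Oas1d. Elsewhere on that chromosome lie Oasl2 and Oasl1, with Gm13822 between them. Among the copies with a value, the largest differences sat at both ends of this order, in Oas2, Oas3 and Oas1a. Oas1g, beside Oas1a, and Oas1d, the last copy, had no value. Between them Oas1e (0.0085 in IR and -0.067 in NIR against PA), Oas1f (0.0011 and 0.012) and Oas1h (0.18 and 0.21) did not pass. Of the 4 further Oas1 copies listed, these 3 were measured. By limma none was called in any comparison, with 1 higher against PA at an unadjusted p under 0.05, Oas1h in both derived groups. Among all 18193 genes, 1563 in IR and 2201 in NIR were under it. The nearest measured neighbours outside, Dtx1 (0.061 and 0.24) and Rph3a (-0.0089 and -0.11), did not pass either. The array means of Oas1f and Oas1h, from 3.91 to 4.79, were in the dim range, where a change can go unseen.

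**Figure D4:**
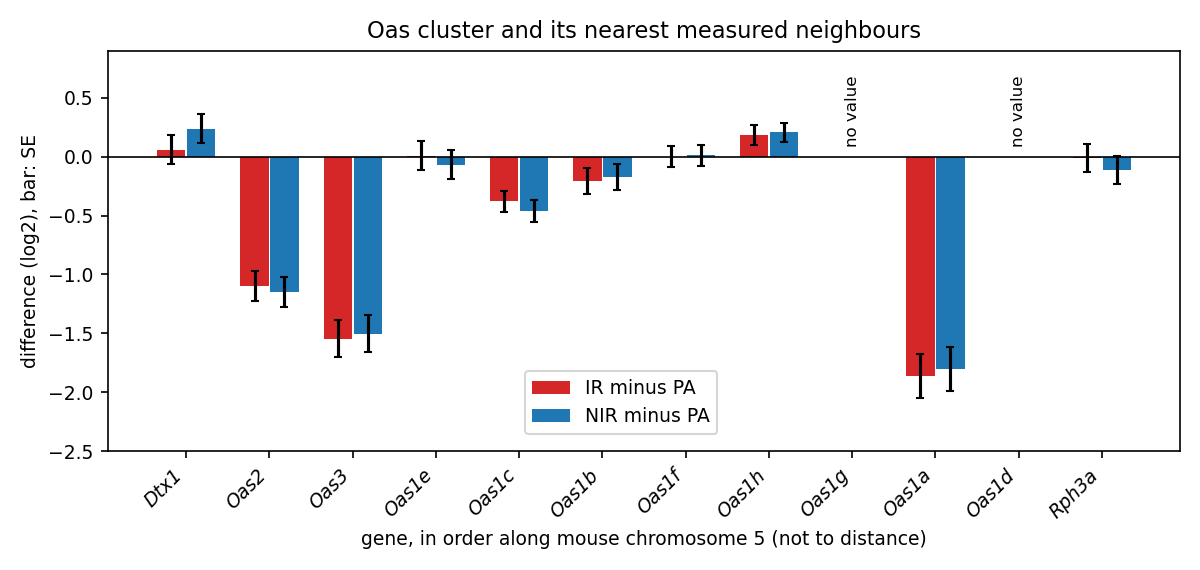
Log2 difference from PA in IR (red) and NIR (blue) for the Oas cluster and its nearest measured neighbour on each side, in chromosome order and not to distance; bars from 0 are limma estimates and whiskers their SE. Differences beyond -1 appear in Oas2, Oas3 and Oas1a, with smaller or no differences in the copies between them; Oas1g and Oas1d had no value.

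The other genes of the 2-5A pathway that were analysed gave no call against PA. These 3 genes were Abce1, which also recycles ribosomes, and Pde12 and Akap7, whose products can degrade or are related to enzymes that degrade 2-5A. In the limma fit there was, at an unadjusted p under 0.05, 1 lower and 1 higher in IR and 1 higher in NIR. Of all 18193 genes, 1563 and 2201 were under that value. Abce1 had means of 10.19 in PA, 10.44 in NIR and 10.20 in IR (SD 0.13, 0.095 and 0.033), and its IR minus NIR difference of -0.24 did not pass (adjusted p = 0.168). Akap7 had means of 7.03, 6.94 and 7.32 (SD 0.11, 0.26 and 0.068), with an IR minus NIR difference of 0.38 (adjusted p = 0.129).

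Pde12 was the list's single call. It read 7.47, 7.54 and 7.38 in PA, 7.58, 7.61 and 7.46 in NIR, and 7.10, 7.17 and 7.22 in IR, with all IR arrays below all others. It was lower in IR than in NIR (-0.39, SE 0.074, limma adjusted p = 0.0293). The call was lost without IR1, IR2, IR3, NIR1, NIR2 or PA1 (adjusted p up to 0.0928, without IR1).

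Several other genes of nucleic acid sensing, a list of sensors with their adaptors and regulators, were also lower than in PA. This list and the interferon lists below were written with earlier results of these data known. Their counts and p-values against PA are therefore a description. Of 13 such genes, all measured, 8 were called lower in IR and 7 in NIR against PA, with none higher. Over all genes 0.759% and 0.918% were called lower. At an unadjusted p under 0.05, 0 were higher in IR and 1 in NIR, and the medians were -0.74 and -0.72. Zbp1, a Z-form nucleic acid sensor that can start cell death, differed by -1.68 in IR and -1.98 in NIR (limma adjusted p = 0.000931 and 0.000228). Dhx58, the LGP2 helper of RNA helicase sensors, differed by -1.59 and -1.81, and Ifih1, the long double-stranded RNA sensor MDA5, by -1.36 and -1.86. Adar, which edits adenosine in double-stranded RNA, differed by -1.05 and -0.85. In IR the count was 6 whichever IR or PA array was left out, since Eif2ak2, the kinase PKR (-0.74, adjusted p = 0.0486, up to 0.251 without PA2), and Tlr3, an endosomal RNA receptor (-0.57, adjusted p = 0.0454, up to 0.189 without PA3), then did not pass. Eif2ak2 was lost without NIR1 as well. The DNA sensor Cgas (-0.24 and -0.034) and the adaptor Mavs (-0.29 and -0.34) did not pass. Against NIR, Prkra, an activator of PKR, was the list's single call (0.56 higher in IR, adjusted p = 0.0260), lost without IR1, IR3, NIR1, NIR2 or PA1 (up to 0.0772, without NIR1). Ifih1 was called there only without NIR3, its highest NIR array (0.70, adjusted p = 0.0322).

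The machinery that carries the interferon signal split into a part that was lower and a part that did not pass. Of 14 genes 13 were measured, and 4 were called lower in each comparison with PA, where 0.759% (IR) and 0.918% (NIR) of all genes were. None was higher, also at an unadjusted p under 0.05, and the medians were -0.034 in IR and -0.12 in NIR. As for the sensing genes, these counts and p-values are a description. Irf7, the factor that amplifies interferon production, differed by -2.57 in IR and -2.54 in NIR (limma adjusted p = 2.13e-06 and 4.93e-06). Usp18, which damps signalling at the interferon receptor, differed by -2.40 and -2.65.

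Irf9 and Stat2, parts of the complex that binds the element shown in the promoters, were lower by smaller amounts. Irf9 differed by -0.995 in IR and -1.25 in NIR, and Stat2 by -0.94 and -1.01. The Irf9 call in IR was lost without IR1, IR3 or any PA array (adjusted p up to 0.107, without PA2). The Stat2 calls were lost without IR2, IR3, PA2 or PA3 in IR (up to 0.0988, without PA2) and without PA2 or PA3 in NIR (up to 0.0592, without PA3). The count in IR was thus 2 instead of 4 without IR3, PA2 or PA3. The receptor gene Ifnar1 (-0.041 and -0.17) and Ifnb1, the interferon beta gene (0.077 and 0.030, with group means of 4.16 to 4.24), did not pass. Against NIR none of the 13 was called by limma, and none had an unadjusted p under 0.05.

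Effectors of the interferon response outside the OAS family were also lower. Of 15 genes 13 were measured, and 11 were called lower in IR and 9 in NIR against PA, beside 0.759% and 0.918% of all genes. None was higher, also at an unadjusted p under 0.05, and the medians were -1.44 and -1.68. Here too the counts and p-values against PA are a description. Ifit1, which binds RNA lacking the host cap mark, differed by -1.94 in IR and -2.14 in NIR (limma adjusted p = 0.00481 and 0.00197). Rtp4 differed by -1.58 and -2.01, Ifit3, a partner of Ifit1, by -1.54 and -1.78, and Cmpk2, a mitochondrial nucleotide kinase, by -1.52 and -1.77. In IR the calls of Ifit2 (-0.44, adjusted p = 0.0143) and Samhd1 (-0.42, adjusted p = 0.0278) were lost without several single arrays, which left 9 without IR2, PA1 or PA2 (adjusted p up to 0.0979 and 0.165, without PA1). The GTPase genes Mx1 (0.089 and -0.079) and Mx2 (-0.33 and -0.36) did not pass, and Mx1 was dim, with group means of 3.69 to 3.86.

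Between IR and NIR no effector was called by limma, with 1 lower and 2 higher in IR at an unadjusted p under 0.05 and a median of 0.23. Among all 18193 genes, in either direction, 2890 were under that value, so nothing is read from these counts. Without NIR3, the NIR array with the highest mean of this list (7.20 against 6.71 and 6.87), 3 were called higher in IR: Bst2, which tethers budding virus (0.44, adjusted p = 0.0294), Xaf1 (0.65, adjusted p = 0.0324) and Ifi35 (0.48, adjusted p = 0.0349). In that fit 271 of all genes were called, in either direction. In Oasl2 the difference without NIR3 was 0.54, against 0.28 with all arrays, and it did not pass. NIR3 was the highest NIR array for each of these genes, so leaving it out raises IR minus NIR by construction. Bst2, Xaf1 and Ifi35 were named after these values were seen. The core element was found in 4 of 9 effectors with a promoter window, in 3 of 10 sensing genes and in 3 of 12 signalling genes. It was found in 0 of 3 other 2-5A pathway genes and in 0 of 2 further Oas1 copies, beside 3.99% of all genes with a window.

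The genes whose arrays most resembled the family were searched among the 437 genes outside it with a range of at least 1 log2 unit. The family profile was the mean of Oas1a, Oas2, Oas3, Oasl1 and Oasl2, each centred on its own mean. It stood at 1.16, 1.06 and 1.11 in PA, -0.78, -0.55 and -0.23 in NIR, and -0.46, -0.42 and -0.88 in IR. The 6 closest by Pearson's r over 9 arrays were Igtp, an interferon-induced GTPase gene (0.994), Irf7 (0.992), Ddx58, the RNA sensor RIG-I (0.990), Gbp3, a guanylate-binding protein gene (0.989), Ifitm3, which blocks viral entry (0.988), and Ifit3 (0.985). These values rest mostly on the step between PA and the derived arrays, which form separate clusters. Within the 6 derived arrays alone r was 0.919 for Igtp, 0.907 for Irf7, 0.896 for Ddx58, 0.852 for Gbp3, 0.910 for Ifitm3 and 0.751 for Ifit3. Igtp, the closest, read 9.96, 9.97 and 9.89 in PA, 8.07, 8.29 and 8.69 in NIR, and 8.65, 8.53 and 8.13 in IR, so its arrays kept the same low points, NIR1 and IR3, as Oas1a.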

How the data were processed

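The authors deposited log2 expression values made with RMA, per the submitters' processing notes, for 9 arrays, and version and settings are not given in the sources used here. Per the labels' protocols, a Qiagen RNeasy Mini Kit gave the RNA and biotin was the label. Its 45100 probe sets included 64 controls, and 34944 had a single annotated gene. Of these, 34740 were matched to RefSeq by Entrez identifier. The brightest probe set stood for each of 18193 genes. Comparisons used limma 3.58.1 under R 4.3.3 (lmFit and eBayes over all 9 arrays, 6 residual and 5.48 prior degrees of freedom, 2-sided, Benjamini-Hochberg adjustment over all genes, threshold 0.05), and the procedure was tested on simulated data. The number of arrays limits the precision. Python 3.11.15 with matplotlib 3.10.9 drew the figures, and Biopython 1.88 aligned promoters.

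Members and gene lists were chosen with earlier results of these data known. Named genes were every member, the 2-5A list, up to 4 called genes per other list with the largest IR minus PA difference, up to 2 that did not pass, and the 6 genes most like the family profile. Cell type markers, genes that single arrays decided and genomic neighbours were named to describe the samples, after their values were seen. Alternatives were to average a gene's probe sets, to drop those open to several transcripts, to test each probe set, a signal filter, median scaling, eBayes with trend and robust settings, the 2 compared groups alone, a replicate block, array weights, and leaving out each array.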

Additional observations from a re-analysis of the deposited data

How the results depend on the processing

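Each measured member has 1 probe set, so the choice of probe set could not change its values. With array weights 468 genes were called in IR against PA (192 in the report's fit) and 382 in NIR against PA (236), and in IR against NIR a filter on signal above the median gave 506 and the compared groups alone gave 11 (300). Leaving out 1 array gave 99 to 214, 121 to 370 and 77 to 271 in the same order. The members called stayed at 5 in IR against PA and at 5 to 6 in NIR against PA, and Oas1c was also lost with the compared groups alone and with array weights. In IR against NIR 1 member, Oasl1, was called with the signal filter. Genes called on the lists of the pathway and of interferon were 2 in IR against NIR, 1 with the mean of probe sets, 0 with the compared groups alone, 1 with the replicate block and 0 to 6 without 1 array. IR minus NIR differences near 0 changed sign: Oas1b (0.020) and Oas3 (0.015) with array weights, and, over the fits without 1 array, Oas1a (-0.23 to 0.20, at 0.091 without IR3 and 0.20 without NIR3), Oas1b (-0.13 to 0.054, at 0.014 without IR3 and 0.054 without NIR2), Oas2 (-0.11 without NIR1, up to 0.16) and Oas3 (-0.21 to 0.059, at 0.059 without IR3 and 0.043 without NIR2 or NIR3). The cause was not tested beyond the smaller number of arrays or genes. Same-numbered arrays did not deviate together (correlations -0.20 to 0.097), which gave no sign of a pairing by number. Whether the numbers pair samples cannot be decided from this, since each group has few arrays and differently numbered arrays were not compared. With the replicate block, 5, 5 and 0 members and 164, 203 and 230 genes were called in IR against PA, NIR against PA and IR against NIR, and Oas1c in NIR was the only member's call it changed. Dim probe sets near the array median, Oas1c, Oas1f, Oas1h and Mx1 among them, can hide a change.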
